A study of Mus musculus with 4 samples.

Results

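The genes described here encode inhibitors of Wnt signalling: the secreted Frizzled-related proteins Sfrp1, Sfrp2, Sfrp4, Sfrp5 and Frzb, the Dickkopf proteins Dkk2 and Dkk3, the Wnt inhibitory factor Wif1, and Tpbg. They were taken by exact gene symbol from the array annotation and make up 9 of the 18193 genes measured, with 18 of the 45037 probe sets tested. A probe set is a group of short array probes read together as 1 value. Most name 1 gene, while 932 of those tested name several and 9160 name none. The study used Affymetrix mouse arrays for 2 samples from Ift88-deleted mice (genotype Col2aCre;Ift88fl/fl) and 2 control samples that the labels call wild-type, all on the C57BL/6 background at postnatal day 7. The Cre is driven by a Col2a promoter, active in cartilage, so the deletion is directed to chondrocytes. The labels do not say whether control mice carried the Cre or a floxed allele. Chondrocytes of the proliferative zone, where growth plate cells divide in columns, were cut by needle from 40 µm sections of tibia and femur, and 50 ng of RNA per sample was amplified. Ift88 belongs to the intraflagellar transport complex needed to assemble primary cilia, and the question is how gene expression differs in cartilage that lacks it.

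Wnt proteins bind Frizzled receptors and the co-receptors Lrp5 and Lrp6, and in the canonical branch this stabilises beta-catenin, which acts with Tcf and Lef factors on target genes. Sfrp proteins carry a domain like the Wnt-binding part of Frizzled and bind Wnts outside the cell, as Wif1 does by a different domain. Dkk2 binds the Lrp co-receptors. Dkk3 is a divergent member of that family. Tpbg is not secreted: it is a membrane glycoprotein that, in zebrafish, inhibits beta-catenin signalling through Lrp6. In the growth plate Wnt signals promote chondrocyte maturation, and Sfrp5 is known as a gene of the resting zone.

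All values are log2, with each probe set's median over the 4 arrays set to 0. They compare arrays and give no expression level. With 4 arrays this centring makes the values of the middle pair equal in size and opposite in sign, so where the groups do not overlap the gap between them is the sum of their sizes. Differences are Ift88-deleted minus control, tested with limma over all probe sets, with Benjamini-Hochberg adjustment over every probe set tested and a threshold of 0.05. With 2 arrays per group the smallest two-sided p of an exact permutation test is 0.333. Nothing in the labels beyond the term biological replicates says how many animals lie behind a sample.

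Xist was lower in both Ift88-deleted arrays, at -3.79 and -3.61, against 3.58 and 3.74 in the control arrays, and Eif2s3y, Kdm5d and Uty on the Y chromosome were higher in both. The split of the arrays by these sex-linked genes is also the split by genotype, and sex and genotype cannot be told apart for any gene below. The probe set of Ift88 gave a difference of 0.08 (SE 0.154, adjusted p = 1 in the fit per gene), and its position relative to the deleted part of the gene was not analysed here. All 16 cartilage marker genes had a probe set in the brightest of 3 coarse classes. That class was inferred from the rounding of the deposited numbers and stands for original log2 values of at least 8 on every array. The sorting is rough, so it does not settle the level of each gene. The largest spread over probe sets was that of control 1 (SD 0.289), with 0.173 to 0.223 in the other arrays. In bulk samples, fewer cells of a type and less RNA per cell cannot be told apart.

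None of the 18 probe sets passed the threshold. Over all probe sets 20 passed, which is 0.0444%. The groups nevertheless stood well apart for part of the set. Tpbg and Sfrp2 had higher values in both Ift88-deleted arrays, Frzb had moderately higher ones, and 1 of the 2 Sfrp5 probe sets had much lower ones. For 7 of the 18 probe sets the unadjusted p was under 0.05, where 6.17% of all probe sets had such a p. These were the 3 Tpbg probe sets, that of Sfrp2, both of Frzb and 1 of Sfrp5. At least 2-fold differences with groups that do not overlap were found for 5 of the 18, against 0.755% of all probe sets. The median absolute difference was 0.40 over the 18 and 0.13 over all. The 18 are not independent, since the probe sets of a gene read the same RNA, and the 5 come from 3 genes. The members were chosen with earlier results of these data known, so these counts and shares, here and below, do not test the set.

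**Figure D1:**
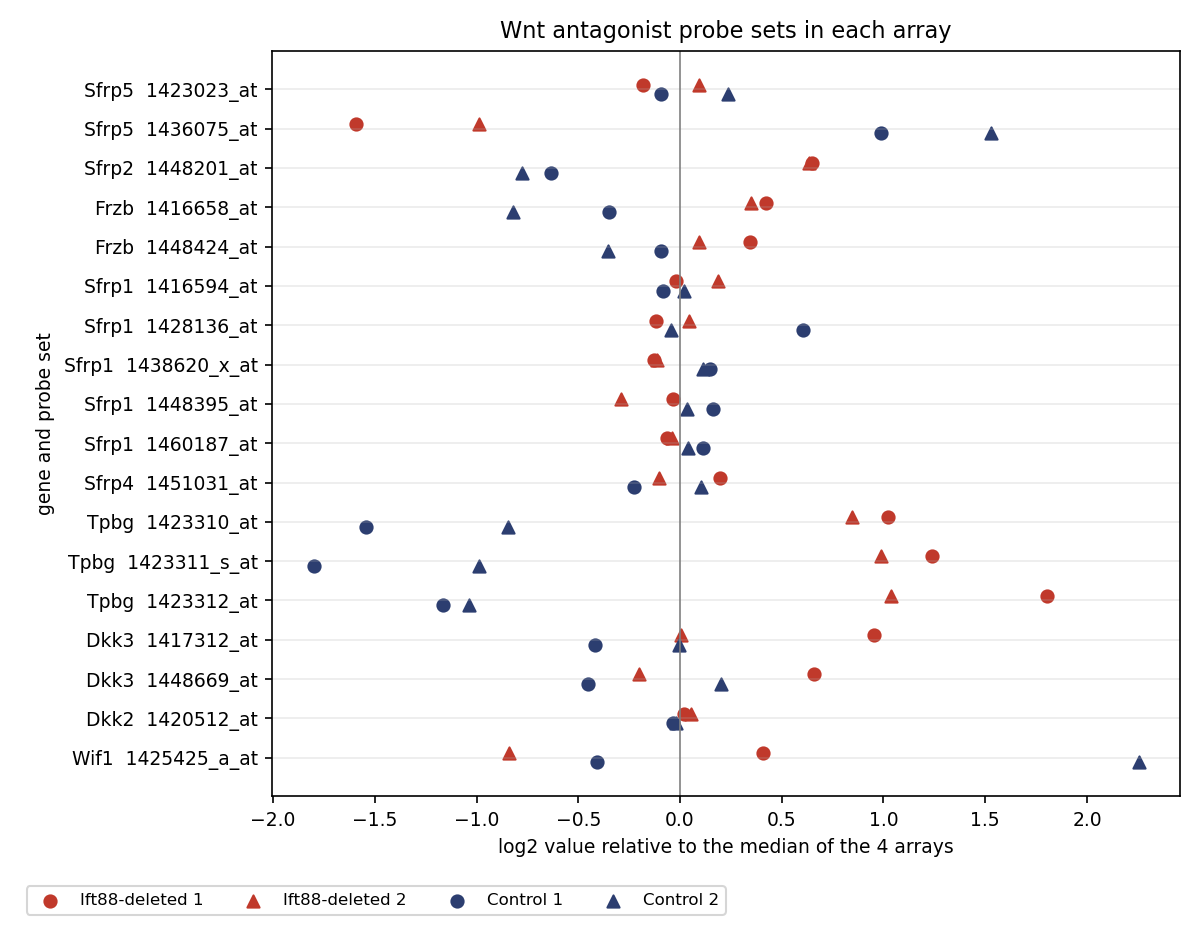
Log2 value relative to the median of the 4 arrays (x axis) for each of the 18 probe sets (y axis), with Ift88-deleted arrays in red and control arrays in blue, circles for replicate 1 and triangles for replicate 2. Both groups lie far apart for Tpbg, for Sfrp2 and for 1 Sfrp5 probe set, while Wif1 is set by a single high control array at 2.25.

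Sfrp5 (chromosome 19, 42197971 to 42202252, GRCm38.p6) was read by a pair of probe sets that gave different answers. Probe set 1436075_at stood at -1.59 and -0.99 in the Ift88-deleted arrays, against 0.99 and 1.53 in the control arrays. Both Ift88-deleted arrays were thus below both control arrays, with a gap of 1.98 that was wider than the distance within either group (0.605 and 0.540). The difference was -2.55 (SE 0.280, 95% interval -3.25 to -1.85), or 5.85-fold lower, with an unadjusted p of 0.000167 and an adjusted p of 0.193. By size it ranked 25 among all 45037 probe sets, and by p value 39.

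The other Sfrp5 probe set, 1423023_at, stood at -0.18 and 0.09 in the Ift88-deleted arrays, against -0.09 and 0.24 in the control arrays. The groups overlapped, and the difference was -0.11 (95% interval -0.58 to 0.36, adjusted p = 0.992). The intervals of the pair of probe sets did not overlap. Both had their lowest original value in the class of 4 to 8 on the log2 scale, so this coarse class does not separate them. Averaged into 1 value for the gene, Sfrp5 was 2.52-fold lower (-1.33, SE 0.218, adjusted p = 0.312 over all genes).

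Sfrp2 (chromosome 3, 83765750 to 83774314), which binds Wnts and is abundant in fibroblasts and loose connective tissue, had a single probe set. It stood at 0.65 and 0.63 in the Ift88-deleted arrays, against -0.63 and -0.78 in the control arrays. The arrays of each group lay close together, 0.0149 apart in the Ift88-deleted and 0.145 in the control group, and the gap between groups was 1.27. The difference was 1.35 (SE 0.141, 95% interval 0.99 to 1.70), or 2.54-fold higher, with an unadjusted p of 0.000132 and an adjusted p of 0.170. It ranked 35 of all probe sets by p value and 149 by size. Tested per gene, Sfrp2 had an adjusted p of 0.0982.

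Frzb (chromosome 2, 80411970 to 80447396), a cartilage Sfrp also known as Sfrp3, was higher in both Ift88-deleted arrays by both of its probe sets. The brighter one, 1416658_at, stood at 0.42 and 0.35 in the Ift88-deleted arrays, against -0.35 and -0.82 in the control arrays, a difference of 0.97 (SE 0.198, unadjusted p = 0.0035, adjusted p = 0.520). Probe set 1448424_at stood at 0.34 and 0.09, against -0.09 and -0.35 in control arrays, a difference of 0.44 (SE 0.173, adjusted p = 0.806). In both, control 2 was the lowest array and Ift88-deleted 1 the highest. The gap between groups was wider than the distance within either group for the first probe set only.

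Sfrp1 (chromosome 8, 23411383 to 23449632) was read by 5 probe sets, with differences from -0.32 to 0.12 and none with an unadjusted p under 0.05. Values were lower in both Ift88-deleted arrays for 3 of them, and the groups overlapped for the others. Over all probe sets, 33.6% have groups that do not overlap. The widest of the 3 gaps was that of 1438620_x_at, at -0.13 and -0.11 in the Ift88-deleted arrays, against 0.15 and 0.11 in the control arrays. Probe set 1428136_at carried the largest difference (-0.32), set by control 1 at 0.60, while the remaining control array was at -0.04 and the Ift88-deleted arrays at -0.12 and 0.04. Per gene the difference was -0.17 (95% interval -0.49 to 0.15), so a fold change in Sfrp1 of the size seen for Sfrp2 lies outside this interval. None of the Sfrp1 probe sets was in the brightest class.

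Sfrp4 (chromosome 13, 19623175 to 19632825), an Sfrp expressed in mesenchymal and bone-forming cells, stood at 0.19 and -0.10 in the Ift88-deleted arrays, against -0.22 and 0.10 in the control arrays. The groups overlapped, and the difference was 0.11 (95% interval -0.37 to 0.58, adjusted p = 0.996). The order of the 5 Sfrp genes by difference per gene was thus Sfrp2 at 1.35, Frzb at 0.71, Sfrp4 at 0.11, Sfrp1 at -0.17 and Sfrp5 at -1.33. The 95% intervals of Sfrp2 (1.03 to 1.66) and Frzb (0.29 to 1.12) overlapped, as did those of Frzb and Sfrp4 (-0.33 to 0.54) and of Sfrp4 and Sfrp1. That of Sfrp5 (-1.87 to -0.79) overlapped none of the others, but it belongs to the mean of 2 probe sets that disagreed. The interval of 1423023_at alone (-0.58 to 0.36) overlapped those of Sfrp1, Sfrp4 and Frzb.

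**Figure D2:**
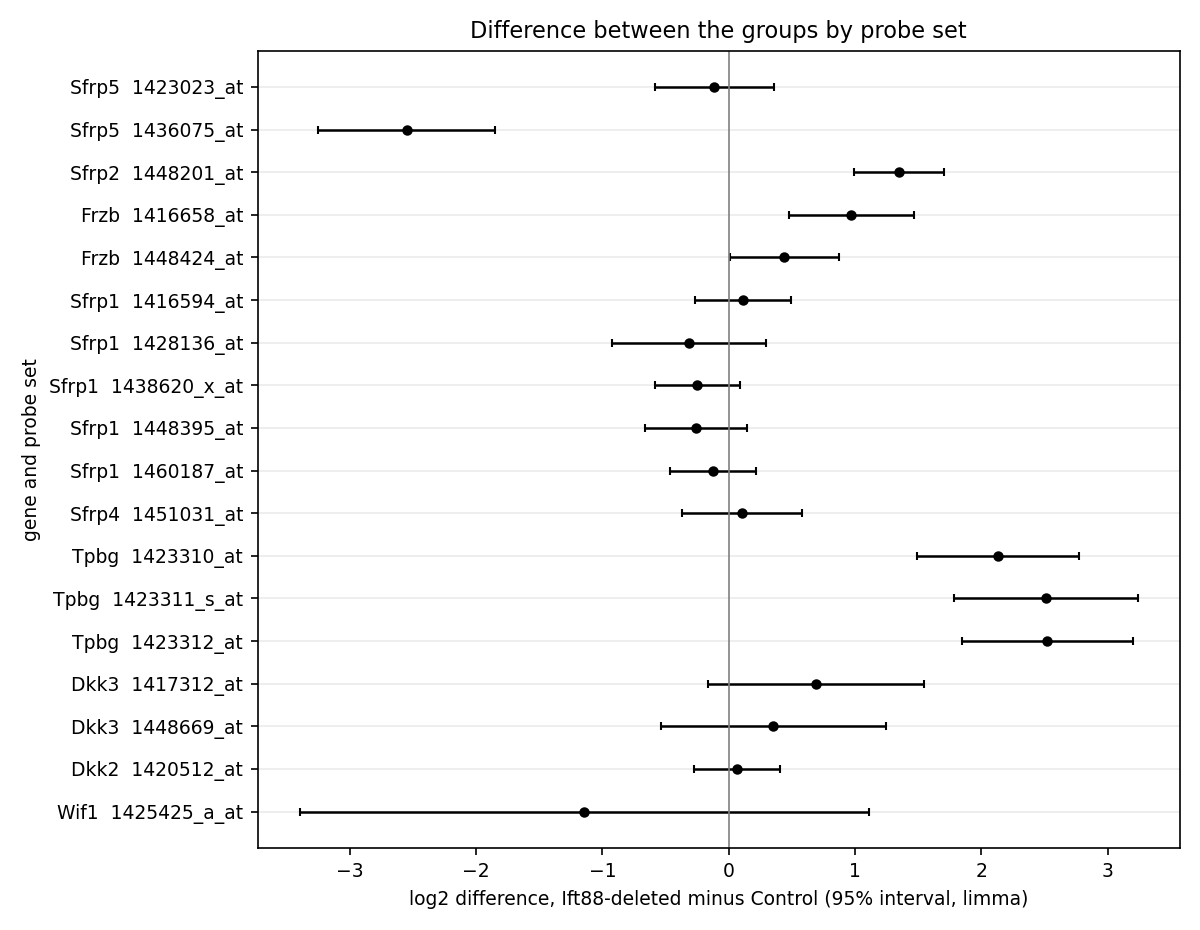
Log2 difference, Ift88-deleted minus control (x axis), for each of the 18 probe sets (y axis), with bars for the limma 95% interval from 2 arrays per group. The 3 Tpbg probe sets lie between 2.13 and 2.52, the lower Sfrp5 probe set at -2.55, and the Wif1 interval runs from -3.40 to 1.11.

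Sequences before an annotated transcript start are shown for the genes with an unadjusted p under 0.05, so that members with differences of opposite sign can be set side by side. Each is the 250 bases before that start, 5′ to 3′ on the strand of the gene, from RefSeq for GRCm38.p6: chr19:42202253-42202502 (minus strand) for Sfrp5, chr3:83766071-83766320 (plus) for Sfrp2, chr2:80447397-80447646 (minus) for Frzb, and chr9:85842130-85842379 (plus) for the first of 2 Tpbg windows. The Sfrp2 window belongs to a start inside the gene span given above and so lies within the gene, as does the second Tpbg window, and the bases before the outermost Sfrp2 start were not analysed here. Capitals mark a GC box, GGGCGG or its reverse complement CCGCCC.
Sfrp5: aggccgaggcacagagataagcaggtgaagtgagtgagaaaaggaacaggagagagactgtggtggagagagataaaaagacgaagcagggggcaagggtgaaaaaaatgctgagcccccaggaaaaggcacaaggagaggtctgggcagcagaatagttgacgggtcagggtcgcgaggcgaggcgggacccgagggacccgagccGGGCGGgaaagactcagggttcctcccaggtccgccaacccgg
Sfrp2: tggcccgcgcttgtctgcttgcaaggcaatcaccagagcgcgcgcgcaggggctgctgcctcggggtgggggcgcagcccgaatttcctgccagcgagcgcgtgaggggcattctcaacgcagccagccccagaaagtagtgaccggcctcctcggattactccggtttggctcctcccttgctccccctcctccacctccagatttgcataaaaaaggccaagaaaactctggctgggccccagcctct
Frzb: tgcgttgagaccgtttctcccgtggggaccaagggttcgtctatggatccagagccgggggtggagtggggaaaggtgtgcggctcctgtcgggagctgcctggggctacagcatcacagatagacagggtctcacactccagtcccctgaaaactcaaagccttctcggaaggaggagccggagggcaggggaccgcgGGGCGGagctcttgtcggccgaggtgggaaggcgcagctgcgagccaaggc
Tpbg: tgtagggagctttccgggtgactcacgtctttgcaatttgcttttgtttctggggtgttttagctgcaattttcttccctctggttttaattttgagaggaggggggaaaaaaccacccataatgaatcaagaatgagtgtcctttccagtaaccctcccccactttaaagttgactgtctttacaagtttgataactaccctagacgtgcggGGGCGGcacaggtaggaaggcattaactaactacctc
Windows were found for 6 of the 9 genes, 7 in all, and were searched on both strands. A GC box was found in those of Sfrp5, Frzb, Dkk2, Wif1 and Tpbg and not in that of Sfrp2, which lies within the gene, and 32.7% of all 32851 windows hold one. It lay 43 to 38 bases before the start in Sfrp5 and 37 to 32 in the Tpbg window shown. The Tcf/Lef core CTTTGAA (4.46% of all windows), its variant CTTTGAT (3.21%) and the Gli motif GACCACCCA (0.225%) were not among the letters of any of the 7 windows. A TATAAA was found in those of Dkk2 and Wif1, against 12.4% of all windows. The pair of Tcf/Lef motifs share all letters but the last, and no matches overlapped.

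Tpbg (chromosome 9, 85842380 to 85847057) had the largest difference of the 9 genes, and its 3 probe sets gave the same picture. Probe set 1423312_at stood at 1.80 and 1.04 in the Ift88-deleted arrays, against -1.17 and -1.04 in the control arrays. Probe set 1423311_s_at stood at 1.24 and 0.99, against -1.80 and -0.99 in control arrays. Probe set 1423310_at stood at 1.02 and 0.85, against -1.54 and -0.85 in control arrays. Ift88-deleted 1 was the highest array and control 1 the lowest in all 3, and no groups overlapped.

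The Tpbg differences were 2.52 (SE 0.270), 2.51 (SE 0.291) and 2.13 (SE 0.256), or 5.74-fold, 5.69-fold and 4.37-fold higher. Their adjusted p values were 0.175, 0.231 and 0.236, and their ranks by size among all probe sets 27, 29 and 45. In each the gap between groups, 1.69 to 2.07, was wider than the distance within either group, the widest of which was 0.813. Per gene the difference was 2.39 (SE 0.232, 95% interval 1.81 to 2.96, adjusted p = 0.0982), rank 8 of 18193 genes by size and 11 by p value. Over all 18 probe sets the gap was wider than both distances within groups for 9, while 8.93% of all probe sets had such a gap.

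Dkk3 (chromosome 7, 112116019 to 112159482), a secreted glycoprotein of the Dickkopf family, was high in Ift88-deleted 1 alone. Probe set 1417312_at stood at 0.95 and 0.0029 in the Ift88-deleted arrays, against -0.42 and -0.0029 in the control arrays, with a gap between groups of 0.00588. Probe set 1448669_at stood at 0.66 and -0.20, against -0.45 and 0.20 in control arrays, and the groups overlapped. The differences were 0.69 (95% interval -0.17 to 1.54) and 0.35 (-0.53 to 1.24). Without Ift88-deleted replicate 1 they were 0.21 and -0.08, and without Ift88-deleted replicate 2 they were 1.16 and 0.78.

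The list of perichondrium and fibroblast markers also had its highest median in Ift88-deleted 1. The median of the 16 measured genes of that list was 0.364 in Ift88-deleted 1 and -0.105 in Ift88-deleted 2, against -0.206 in control 1 and 0.0996 in control 2, and 12 of them had a probe set in the brightest class. Postn, a matrix protein of the periosteum, stood at 3.47 in Ift88-deleted 1 and -0.65 in Ift88-deleted 2, against 0.65 and -1.14 in the control arrays. Aspn, a small proteoglycan, stood at 3.004 and -0.02, against -0.02 and -0.16 in control arrays. Dcn, decorin, was not particular to Ift88-deleted 1. It stood at 0.26 and 0.22 in the Ift88-deleted arrays, against -1.25 in control 1 and -0.17 in control 2. Of the 16 genes, 10 had a difference above 0 and 6 below. The part of such cells in the values of Dkk3, Sfrp2 and Tpbg was not tested.

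Wif1 (chromosome 10, 121034004 to 121100642) was high in control 2 alone. It stood at 0.41 and -0.84 in the Ift88-deleted arrays, against -0.41 and 2.25 in the control arrays, and the groups overlapped. The difference of -1.14 had a 95% interval from -3.40 to 1.11 (adjusted p = 0.936). Without control replicate 2 it was 0.19 and without control replicate 1 it was -2.47. Its probe set was 1 of 2 among the 18 in the dimmest class, with a lowest original value of 2 to 4.

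Several markers of other zones and tissues stood high in the same control array as Wif1. Prg4, the lubricin of the joint surface, was at -0.19 and -0.01 in the Ift88-deleted arrays, against 0.01 in control 1 and 7.52 in control 2. Mmp13, a protease of hypertrophic cartilage and bone, was at 2.45 in control 2, and the osteoclast gene Acp5 at 1.84. The hypertrophic list as a whole did not follow Mmp13. The median of its 7 measured genes was highest in Ift88-deleted 1 (0.3517), while control 2 had a median of -0.0245. The blood and marrow list, with 11 genes, had medians of -0.083 and 0.117 in the Ift88-deleted arrays, against -0.376 in control 1 and 0.453 in control 2. The part of such tissue in the Wif1 value was not tested. For Sfrp5, the list of 11 resting zone and superficial genes, which holds Sfrp5 itself, had medians of 0.079 and -0.037 in the Ift88-deleted arrays, against -0.118 and 0.110 in the control arrays, and did not separate the groups. Its member Ucma, a matrix protein of resting and upper zone cartilage, was higher in both Ift88-deleted arrays (difference 1.09, SE 0.217, adjusted p = 0.424).

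Dkk2 (chromosome 3, 132085266 to 132180304) differed least. It stood at 0.02 and 0.06 in the Ift88-deleted arrays, against -0.04 and -0.02 in the control arrays. The groups did not overlap, as for 33.6% of all probe sets, and the gap was 0.0379. The difference was 0.06 (95% interval -0.27 to 0.40), so a 2-fold change of this probe set's value in either direction lies outside the interval. Its lowest original value was in the class of 4 to 8. How well it reads a change in Dkk2 RNA at that level was not tested.

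**Figure D3:**
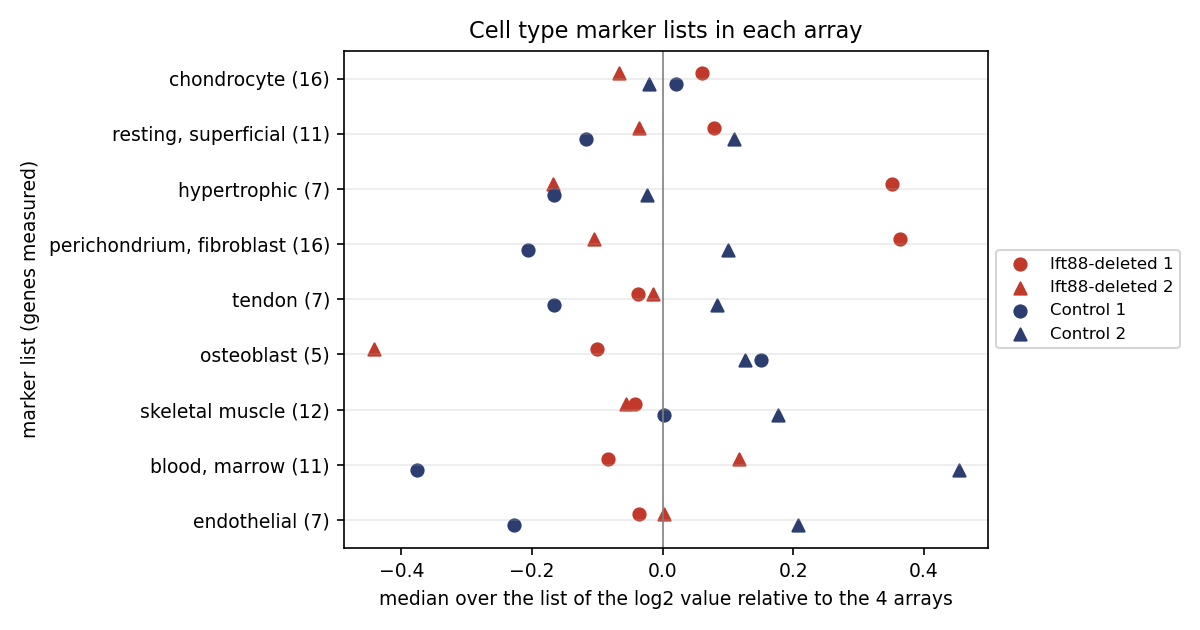
Median over each marker list of the log2 value relative to the 4 arrays (x axis), by list (y axis, with the number of genes measured), Ift88-deleted arrays in red and control arrays in blue. The perichondrium and fibroblast list is highest in Ift88-deleted 1 (0.364), the blood and marrow list in control 2 (0.453), and the osteoblast and muscle lists are lower in both Ift88-deleted arrays.

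The osteoblast and muscle lists were the ones that followed the groups. The 5 osteoblast genes had medians of -0.0999 and -0.442 in the Ift88-deleted arrays, against 0.151 and 0.126 in the control arrays, with Dmp1 at a difference of -0.72 and Omd at -0.73. The 12 muscle genes had medians of -0.042 and -0.056, against 0.002 and 0.176 in control arrays, with Tnnc2 at -1.08 (adjusted p = 0.161). None of these genes passed the threshold, and their part in the Sfrp5, Sfrp2, Frzb and Tpbg values was not tested.

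The members depended on single arrays in different degrees. Sfrp2 moved between 1.27 and 1.42, the lower Sfrp5 probe set between -2.85 and -2.25, and the 3 Tpbg probe sets between 1.78 and 2.92. The brighter Frzb probe set moved between 0.73 and 1.21. Signs turned in at least 1 of these fits for 1 probe set each of Sfrp1, Sfrp4, Sfrp5, Dkk3 and Wif1.

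**Figure D4:**
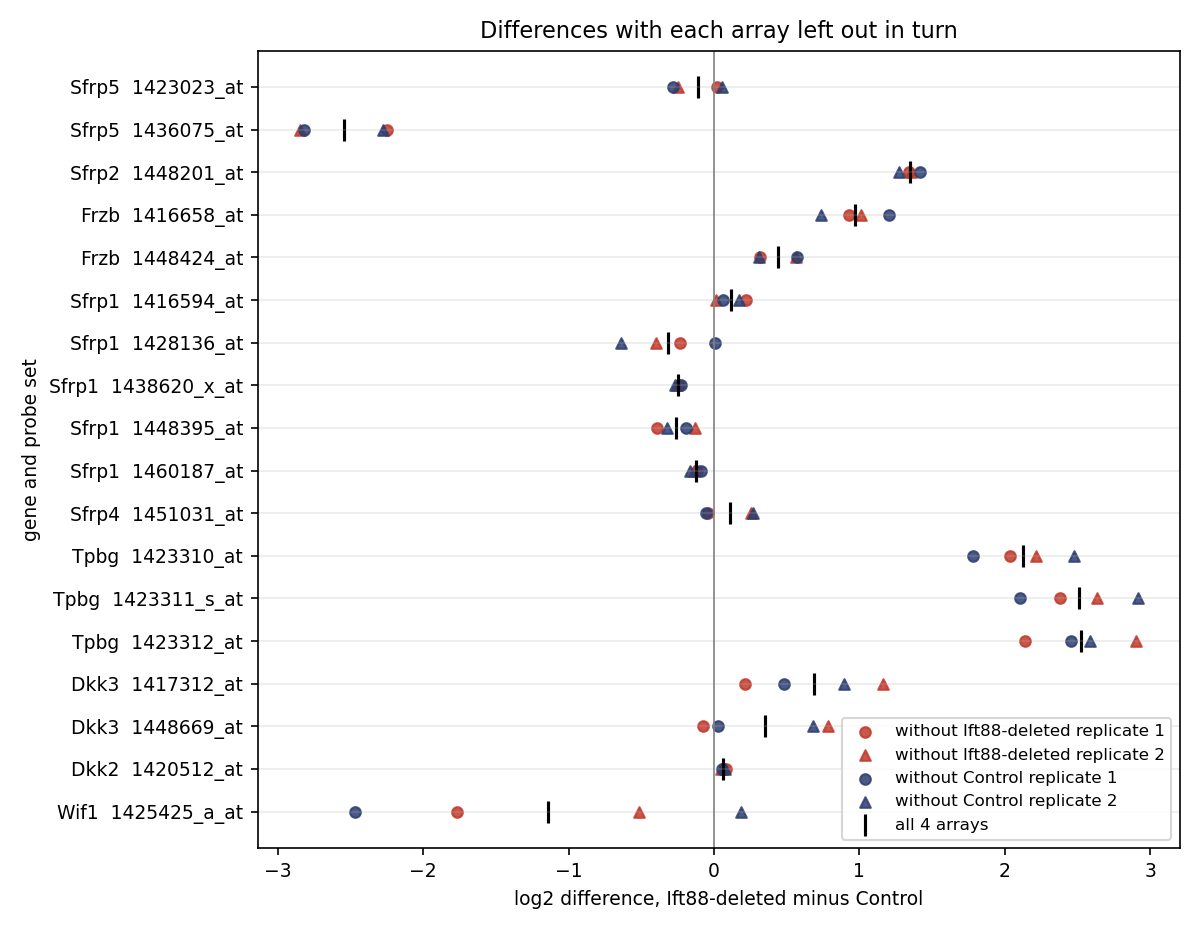
Log2 difference, Ift88-deleted minus control (x axis), for each of the 18 probe sets (y axis) with all 4 arrays (black bar) and with each array left out in turn (red for an Ift88-deleted and blue for a control array left out). Sfrp2, Tpbg, Frzb and the lower Sfrp5 probe set stay on 1 side of 0, while Wif1 spans -2.47 to 0.19.

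Tested per gene, 0 of the 9 members passed, where 2 of all 18193 genes did (0.0110%), and 4 of the 9 had an unadjusted p under 0.05, where 5.96% of all genes had. These were Tpbg, Sfrp2, Frzb and Sfrp5. The count of members past the threshold was 2 without Ift88-deleted replicate 1 (Sfrp2 and Tpbg) and 3 without Ift88-deleted replicate 2 (Sfrp2, Tpbg and Sfrp5), and 0 without either control array. The count over all genes was 56 and 38 in the first pair of these fits and 2 in each of the others, and the cause was not tested. After renewed quantile normalization Tpbg passed (adjusted p = 0.0466), with 14 of all genes.

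Of 16 further Wnt antagonists 0 passed per gene. Over all genes 5.96% had an unadjusted p under 0.05, and 1 of the 16 did. That was Znrf3, a ligase that removes Frizzled from the membrane, at 0.18 and 0.20 in the Ift88-deleted arrays, against -0.28 and -0.24 in control arrays (difference 0.45, SE 0.122, adjusted p = 0.678). The median difference of the 16 was 0.082, with 13 above 0, and that of all genes was -0.007. Their differences ran from -0.11 to 0.45. The next in size were Trabd2b (0.32), a protease that inactivates Wnts, Apcdd1 (0.31), a membrane inhibitor, and Notum (0.26), an enzyme that removes the lipid of Wnts.

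Among the 21 genes for Wnt ligands and their secretion 0 passed, and the 2 with an unadjusted p under 0.05 were lower. Over all genes 5.96% had such a p. Wnt5a, a ligand of the non-canonical branch, stood at -0.05 and -0.48 in the Ift88-deleted arrays, against 0.59 and 0.15 in the control arrays (difference -0.64, adjusted p = 0.814). Wnt11 differed by -0.45, Porcn, which adds the lipid to Wnts, by -0.36 and Wnt5b by -0.27. The list as a whole was not lower: 11 of the 21 had a difference above 0 and 10 below, with a median of 0.008. Groups did not overlap for 6 of the 21, all lower, where 33.3% of all genes have groups apart and 18.6% are lower with groups apart.

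Over all genes 5.96% had an unadjusted p under 0.05. Of 23 receptor and R-spondin genes 0 passed and 1 had such a p. That gene was Rspo3, a ligand that strengthens Wnt signals, at -0.15 and -0.40 in the Ift88-deleted arrays, against 1.15 and 0.15 in the control arrays (-0.92, adjusted p = 0.814). Lgr6, an R-spondin receptor, was at 0.90 and was high in Ift88-deleted 1 alone (1.41). Among 22 transducers 0 passed and 3 had an unadjusted p under 0.05, all higher: Tle3 (0.39), a co-repressor, and the kinases Gsk3b (0.39) and Gsk3a (0.38). Of the 22 transducers, 9 had a difference above 0 and 13 below, with a median of -0.022. The largest difference there, that of Tle2 (-0.62), came with control 1 at 0.97.

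Of 18 beta-catenin target genes 0 passed, 2 were higher and 2 lower with an unadjusted p under 0.05. Such a p was found for 5.96% of all genes. Lef1, a factor that beta-catenin binds and a target itself, stood at 0.45 and 0.79 in the Ift88-deleted arrays, against -1.17 and -0.45 in the control arrays (1.43, SE 0.263, adjusted p = 0.374). As with Sfrp5, its probe sets differed: 1454734_at was 6.30-fold higher and 1421299_a_at, of the dimmest class, 1.16-fold higher. Ccnd1, cyclin D1, was at 0.72. Prom1 (-0.52) and Twist1 (-0.46) were lower in both Ift88-deleted arrays.

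The 11 Hedgehog genes had a median difference of -0.006, with 5 above 0 and 6 below. Groups did not overlap for 2 that were higher and 3 that were lower, and 0 passed per gene. Over all genes, 33.3% have groups apart and 18.6% are lower with groups apart. The 3 lower ones were the pathway readouts Gli1 (-2.62), Ptch1 (-1.62) and Hhip (-1.15), while Gli3, a factor that acts largely as a repressor, was at 0.29 with both Ift88-deleted arrays above both control arrays (adjusted p = 0.881). Gli1 stood at -1.34 and -1.11 in the Ift88-deleted arrays, against 1.69 and 1.11 in the control arrays (adjusted p = 0.0673 per gene).

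Per probe set, Ptch1 1428853_at was 1 of the 20 that passed. It stood at -1.01 and -1.02 in the Ift88-deleted arrays, against 1.26 and 1.01 in the control arrays, a difference of -2.15 (SE 0.154, adjusted p = 0.0416 in limma). The other Ptch1 probe sets differed by -2.81 (1439663_at, adjusted p = 0.118) and by 0.08 (1450824_at, groups overlapping). The call of 1428853_at was lost without any 1 of the 4 arrays, with differences from -2.27 to -2.02 and adjusted p values from 0.0924 to 0.286.

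**Figure D5:**
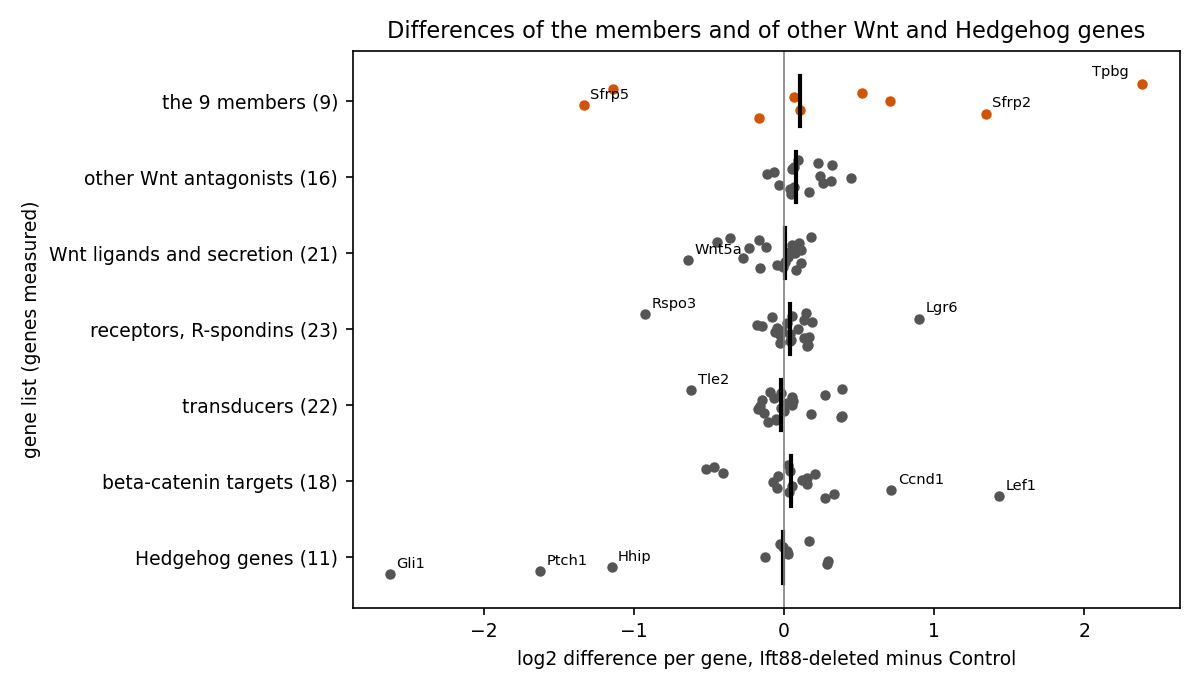
Log2 difference per gene, Ift88-deleted minus control (x axis), for the 9 members (orange) and for other Wnt and Hedgehog gene lists (grey, y axis, with the number measured), each dot a gene and each black bar the median. Tpbg at 2.39 and Sfrp5 at -1.33 are the ends of the members, and Gli1 at -2.62 is the lowest gene shown.

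The probe sets most like the lower Sfrp5 probe set were sought by Euclidean distance over the 4 arrays. The search covered 32601 others that name 1 gene, with predicted genes and genes known only by a clone name left out. The nearest belonged to H2-DMb2, which encodes an MHC class II chaperone chain, at a distance of 0.496, where the Sfrp5 profile itself lies 2.61 from 0. Next came Ptch1, the Hedgehog receptor (0.831), Lsp1, a leukocyte protein that binds actin (0.849), Tnni2, fast skeletal troponin I (0.850), and Snhg14, a non-coding RNA (0.863). Their differences were -2.76, -2.15, -2.40, -2.61 and -2.64, all with both Ift88-deleted arrays below both control arrays. The probe sets of H2-DMb2 and Tnni2 fell in none of the brightness classes, so the rounding gives no level for them. Of the 5, the probe sets of Ptch1 and Snhg14 passed the threshold (adjusted p = 0.0416 for each in limma), and with any 1 array left out neither did. They were chosen for closeness to a profile whose groups lie far apart, so their large negative differences follow from the choice. This order is a description over 4 arrays, with no test.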

How the data were processed

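The deposited values are log2 expression values that the authors made with RMA, per the submitters' processing notes (no version given). No source used here states the log base or the subtraction of each probe set's median; both were read from the values (largest row median 5.0e-07). The rounding of the numbers (tolerance 8e-08) sorts probe sets into 3 brightness classes by the lowest RMA value among the arrays: above 8 (32.1%), between 4 and 8 (50.6%) and between 2 and 4 (16.6%). The remaining 0.664% fell in none of these classes. The sorting is rough, as 21.9% of those above 8 also match the step one coarser.

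Of 45101 probe sets, 64 control probe sets were left out. The other 45037 were fitted in limma 3.58.1 (R 4.3.3) on the group alone, with eBayes, no trend and no level filter. Of these, 34945 name 1 gene, of which 34741 took their symbol from RefSeq (GRCm38.p6), and were averaged to 18193 genes for the fit per gene. The fit was tested on simulated data.

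The members and gene lists were chosen with earlier results of these data known. Named are all member probe sets, Ift88, up to 4 genes per Wnt or Hedgehog list and up to 3 per marker list by size of difference, and the 5 nearest to Sfrp5. Alternatives were other normalizations, spreads, thresholds, brightness filters, a replicate block and leaving out each array. The number of arrays limits the precision.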

Additional observations from a re-analysis of the deposited data

How the results depend on the processing

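No member probe set passed the threshold under any of the 10 alternatives that keep all arrays, and none of the 165 member differences there turned its sign. Of these 10, only renewed quantile normalization and subtraction of each array's median alter a probe set's difference. The others change the test or the probe sets kept, so under them no sign could turn. Over all probe sets, 20 passed, and 9 to 12 did with 1 array left out. The count was 2 without moderation of the spread, 11 against a log2 difference of 0.5, 6 over probe sets of 1 gene symbol and 4 over the brightest class, an alternative chosen after seeing the data. With the replicate number as a block it was 5, and per gene 1. Numbers of the titles were not taken as pairs, since no label ties them to a litter or batch and there are only 2 (correlation of deviations 0.102), and the block changed no member's call. Per gene, members past the threshold numbered 1 after renewed quantile normalization, 2 at a threshold of 0.1 and 0 to 3 with 1 array left out. All genes past it numbered 14 after that normalization, 1 without moderation, 11 at a threshold of 0.1, 4 without the dimmest class and 2 to 56 with 1 array left out. The cause was not tested. The named probe sets of Ptch1 and Snhg14, added after seeing the data, lost their calls with 1 array left out, with each array's median subtracted (adjusted p = 0.0511 for each), without moderation, against a log2 difference of 0.5, with the replicate block (0.348 and 0.206) and over probe sets of 1 gene symbol, and kept their direction in each. Signs of members turned only with 1 array left out: Sfrp4 ranged from -0.0563 to 0.270 per probe set and per gene, Sfrp5 1423023_at from -0.279 to 0.0522, Dkk3 1448669_at from -0.0771 to 0.784, Sfrp1 1428136_at from -0.641 to 0.0075 and Wif1 from -2.47 to 0.19 per probe set and per gene.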
